A study of Mus musculus with 10 samples.

Results

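Interferon-inducible genes were read in the nucleus accumbens (NAc), a ventral striatal region, of 2 inbred mouse strains. The group was set by name: 57 symbols of genes that interferons are known to induce or that carry the interferon response. Of these, 56 had a row among the 29883 genes of the count table, and Mnda had none. The samples were NAc tissue dissected from 5 C57BL/6J (B6) and 5 DBA/2J (D2) male mice, group-housed, ethanol-naive and untreated, killed at 9 weeks of age, with 1 poly-A RNA-seq library per mouse. The strains differ across the whole genome, so no single allele is isolated by the comparison, and reads of both were aligned to the B6 genome, so that fewer transcripts in D2 and fewer D2 reads placed on a gene cannot be told apart. The comparison asks which of these genes differ between the strains at baseline.

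Interferons are secreted proteins, and cells release type I interferon when they sense viral nucleic acid. The type I receptor activates the kinases JAK1 and TYK2, and transcription factors that include STAT2 and IRF9 then reach the nucleus. Type I interferon acts mainly through the interferon-stimulated response element (ISRE) and interferon gamma through the gamma-activated site (GAS), and the genes beside these elements are switched on. Brain tissue without infection keeps a low level of many such genes, in microglia, endothelium, astrocytes and neurons.

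The libraries held 96977262 to 111468080 counts in B6 and 104443243 to 116776714 in D2. Striatal neuron markers summed to 4219 to 5375 CPM (normalised counts, scaled by TMM to a common library size) in B6 and 3526 to 4260 CPM in D2. B6 replicates 3 and 5 stood apart: 6 markers of cortical neurons summed to 931 and 949.5 CPM there, against 139 to 215 in the other B6 mice and 282 to 629 in D2. Their counts were also closer to each other than those of any other 2 mice of 1 strain. The mean chi-square per gene between them was 4.89 over 15388 genes, against 17.5 to 119 for the other pairs. The labels name them as 2 mice and the tests count them so, but whether they are independent was not tested. Member results that change without these 2 libraries are given with that value below.

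In D2 mice 12 interferon-inducible genes were lower and 4 were higher than in B6 mice, and 40 did not pass the test (edgeR quasi-likelihood test, Benjamini-Hochberg padj under 0.05 over all rows). The 12 lower genes were Ifi203, Gbp9, Isg20, Irgm2, Oas1a, Ifih1, Igtp, Usp18, Bst2, Irf3, Irf7 and Parp14. The 4 higher genes were Ifi202b, Gbp2, Xaf1 and Trim25. Called members made up 28.6% of the 56, where 18.3% of all genes were called. Lower members made up 21.4% against a background of 9.83%, and higher members 7.14% against 8.50%. Among the 14404 genes whose mean counts lay within the members' range, 23.0% were called and 12.2% were lower. The members were chosen with earlier results of these data known, so these shares and those below only describe the list. The role groups hold 4 to 11 members each, and their counts below stand beside the same shares of all genes.

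The median log2 fold-change (LFC, D2 minus B6) of the members was -0.12, beside 0.00359 over all rows. The LFC was below 0 for 38 of the 56 (67.9%), against 49.3% of all rows. The values of the 2 strains did not overlap for 15 members (26.8%), where 16.0% of all genes did not overlap. With total counts as library size the split was 8 higher and 10 lower, with DESeq2 8 and 13 (22.1% of all genes called), and with a replicate block 6 and 11. Summed over the members, the level was 246 to 256 CPM in B6 and 226 to 259 CPM in D2. The strains thus overlapped in total, while they did not overlap for 15 of the 56 members. The sum is weighted toward members with many reads, such as Stat2 (mean 31.9 CPM in B6) and Tapbp (25.7 CPM), neither of them called.

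**Figure D1:**
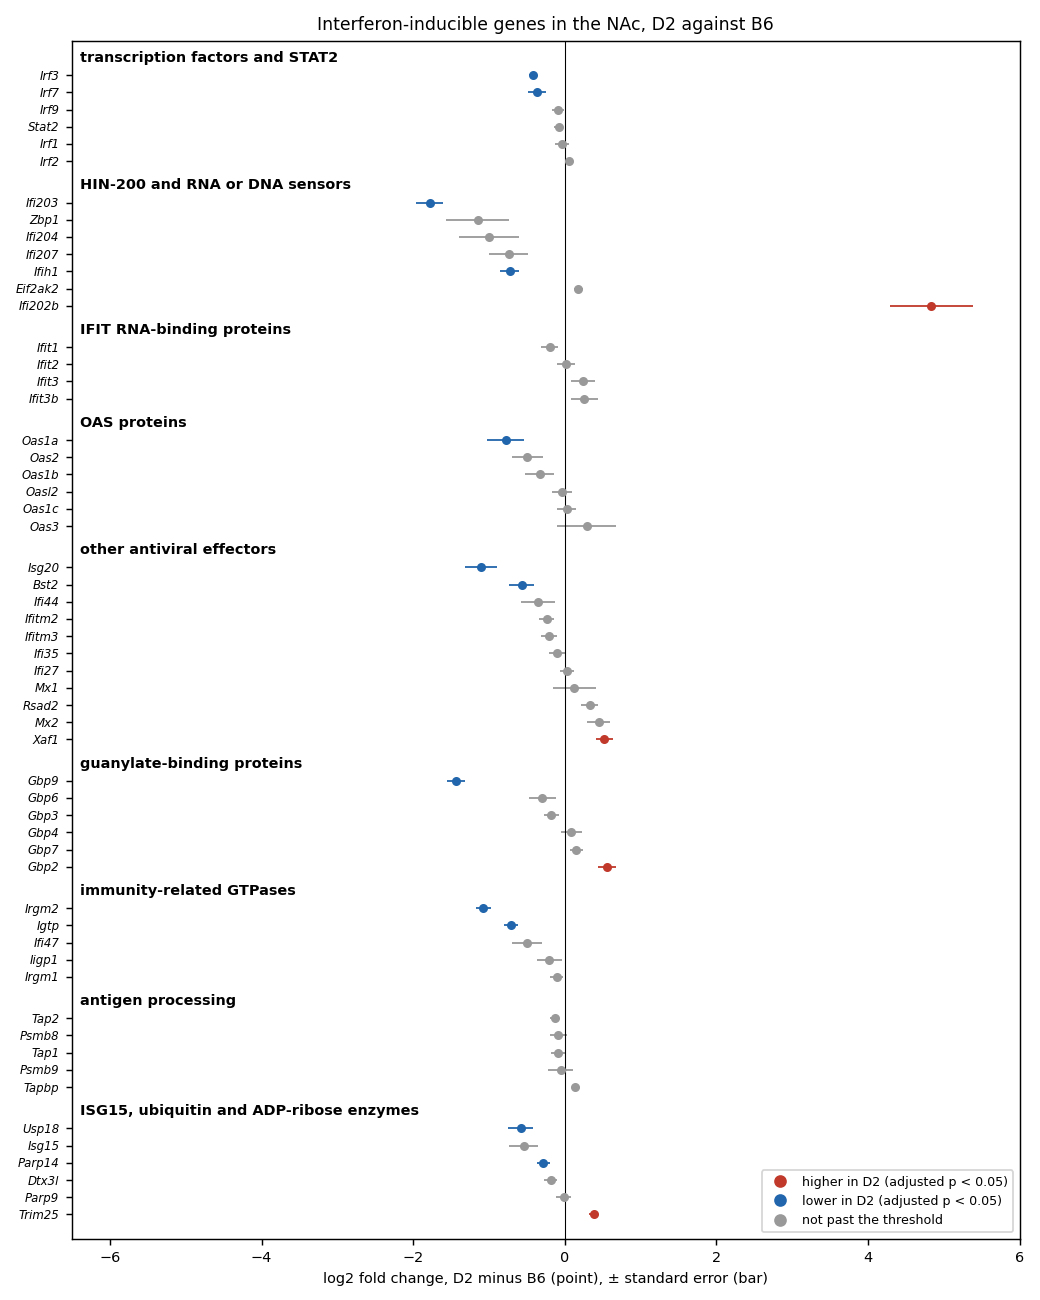
Each of the 56 members is a point at its log2 fold-change, D2 minus B6, on the horizontal axis, with a bar for the standard error, grouped by role. Lower members (blue, 12) lie in 7 of the 9 role groups, the IFIT proteins and the antigen processing genes hold none past the threshold, and Ifi202b at 4.83 is the farthest from 0.

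The promoters are shown first, since the ISRE and GAS are the elements through which interferon acts on many such genes. RefSeq promoter windows, 250 bases before to 50 after the gene start (build GRCm38.p6), were at hand for 41 of the 56 members. The ISRE core (GAAA, 2 bases of any kind, then GAAA) was searched on both strands and was present in 23 of 41 members (56.1%) and in 3.99% of all 27025 genes of the table. The GAS letters TTCNNNGAA, which read the same on both strands, were present in 14 of 41 members (34.1%) and in 9.55% of all genes. By outcome, the ISRE core was found in 7 of the 13 called and 16 of the 28 uncalled members with a window, and the GAS letters in 6 of 13 and 8 of 28. By direction, the ISRE core was found in 6 of 9 lower and 1 of 4 higher members, and the GAS letters in 5 of 9 and 1 of 4. These shares were not tested, and a match is a description of letters and says nothing of binding. The GAS letters ended 2 bases before the ISRE core in Igtp and Irgm2 and 3 bases before it in Bst2, without overlap.

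Printed below is the ISRE core nearest to the start in members the results turn on, with its flanks, in the direction of the gene and with the core in capitals. Igtp and Irgm2, both lower in D2, come first, and their 50 bases were the same at 48 positions and different at 2. Bst2, Oas1a and Ifi203 were lower and Gbp2 higher. Isg15 and Ifit3 are shown as members not called. The sequences are the B6 reference and were placed on GRCm39 by exact match, at chr11:58090328-58090377 (plus strand), chr11:58105719-58105768 (plus strand), chr8:71990211-71990260 (minus strand), chr5:121045589-121045622 (minus strand), chr1:173770064-173770113 (minus strand), chr3:142326345-142326394 (plus strand), chr4:156285312-156285361 (minus strand) and chr19:34560787-34560836 (plus strand).
Igtp: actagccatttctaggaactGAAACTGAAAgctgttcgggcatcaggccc
Irgm2: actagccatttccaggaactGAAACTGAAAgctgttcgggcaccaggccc
Bst2: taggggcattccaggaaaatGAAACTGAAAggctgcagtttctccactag
Oas1a: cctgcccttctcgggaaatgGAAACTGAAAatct
Ifi203: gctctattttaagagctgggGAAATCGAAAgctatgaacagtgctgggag
Gbp2: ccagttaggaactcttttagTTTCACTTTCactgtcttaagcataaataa
Isg15: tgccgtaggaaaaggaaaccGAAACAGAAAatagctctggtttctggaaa
Ifit3: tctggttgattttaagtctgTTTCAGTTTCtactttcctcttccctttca
The window of Ifit3b was the same as that of Ifit3 in all 50 bases. Ifi202b and Isg20 held no ISRE core in their windows, and their GAS letters are shown in capitals, at chr1:173810530-173810578 (minus strand) and chr7:78563079-78563127 (plus strand).
Ifi202b: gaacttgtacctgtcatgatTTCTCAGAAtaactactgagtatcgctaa
Isg20: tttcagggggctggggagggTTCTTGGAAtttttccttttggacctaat

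Among the transcription factors, 2 of 6 were lower in D2 and none was higher. Irf3 is held ready in resting cells and is phosphorylated after nucleic acid sensing to start interferon genes. It read 20.3, 19.97, 21.4, 21.4 and 21.3 CPM in the B6 mice and 16.02, 16.9, 15.2, 14.2 and 15.8 CPM in the D2 mice. All D2 mice lay below all B6 mice, and the level was 1.34-fold higher in B6 (LFC -0.42, SE 0.05, edgeR padj = 6.1e-05). Irf7, which amplifies type I interferon, read 1.36, 1.57, 1.401, 1.48 and 1.68 CPM in the B6 mice and 1.09, 1.35, 1.21, 1.22 and 0.935 CPM in the D2 mice. The strains did not overlap, with B6 1.29-fold higher (LFC -0.37, SE 0.12, edgeR padj = 0.0422), but Irf7 passed in 2 of 10 leave-one-out fits (edgeR padj 0.028 to 0.0929), namely those without B6 replicate 1 and without D2 replicate 2, and its edgeR padj was 0.111 without B6 replicates 3 and 5. Stat2, the partner of IRF9 and the member with the most reads here, read 28.2, 30.98, 34.4, 30.4 and 35.5 CPM in the B6 mice and 29.3, 30.6, 32.5, 28.8 and 29.4 CPM in the D2 mice. B6 replicates 3 and 5, rich in cortical markers, gave its highest B6 values. The strains overlapped (LFC -0.08, padj = 0.426 by edgeR), as did those of Irf9 (LFC -0.09, padj = 0.505 by edgeR), Irf1, an activator induced by interferon gamma (LFC -0.03, padj = 0.862 by edgeR), and Irf2, known as its antagonist (LFC 0.05, padj = 0.455 by edgeR).

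The nucleic acid sensors and HIN-200 proteins held the largest LFC among the members in each direction, with 1 of 7 higher and 2 lower. Ifi202b encodes a HIN-200 protein that binds DNA and lacks the signaling domain of its relatives. It gave 0, 0, 1, 2 and 0 counts in the B6 mice and 20, 18, 19, 24 and 30 counts in the D2 mice. B6 was near 0 and every D2 mouse lay above every B6 mouse, with 111 counts in D2 and 3 in B6, a ratio per library size of 34.7 (95% exact interval 11.6 to 171, counting error only; edgeR LFC 4.83, padj = 3.6e-05). Ifi203, the next gene on the chromosome, went the other way, with 1.05, 0.986, 1.11, 1.099 and 1.21 CPM in the B6 mice and 0.365, 0.362, 0.236, 0.409 and 0.208 CPM in the D2 mice. B6 was 3.44-fold higher with no overlap (LFC -1.78, SE 0.18, edgeR padj = 1.3e-05), although 52.2% of its transcript was nearly identical to other transcripts, Ifi203-ps first, and reads of such copies may be split between them.

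Ifih1, which encodes MDA5, a sensor of long double-stranded RNA, read 2.85, 2.26, 2.99, 2.77 and 2.91 CPM in the B6 mice and 1.49, 2.03, 1.75, 1.73 and 1.33 CPM in the D2 mice. It was 1.66-fold higher in B6 without overlap (LFC -0.73, SE 0.12, edgeR padj = 8.7e-04). Eif2ak2, which encodes the RNA-activated kinase PKR and had the most reads of these sensors, read 6.77, 6.27, 6.13, 5.999 and 5.96 CPM in the B6 mice and 7.53, 7.24, 6.71, 6.88 and 6.798 CPM in the D2 mice. Its strains overlapped (LFC 0.18, SE 0.06, edgeR padj = 0.0606), and DESeq2 put it past the threshold (padj = 0.0217). Zbp1, a sensor of Z-form nucleic acid, had an LFC of -1.15 (SE 0.42, edgeR padj = 0.0791) from a mean of 12.8 counts per library. Ifi204 (LFC -1.003, padj = 0.104 by edgeR) and Ifi207 (LFC -0.74, padj = 0.06803 by edgeR), 2 more HIN-200 genes, were as sparse, with means of 11.4 and 13.7 counts, and Ifi204 shared 49.5% of its transcript with copies such as Ifi211.

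The HIN-200 genes lie side by side on chromosome 1 (chr1:173178445-173810414, GRCm39). From Aim2 to Ifi202b there were 12 rows, the pseudogene Ifi203-ps among them. Of the 12, 6 were lower in D2 and 1 was higher, where 9.83% of all genes were lower and 8.50% higher. The limits of this and the other gene clusters were set after the values were seen. Mndal summed to 352 counts in B6 and 7 in D2 (LFC -5.65, SE 0.36, edgeR padj = 1.9e-07). Aim2, which encodes the DNA sensor of the AIM2 inflammasome, was 7.92 ± 0.199 CPM in B6 and 3.32 ± 0.368 CPM in D2 (SD, n = 5 each; LFC -1.25, SE 0.08, edgeR padj = 1.5e-07). Ifi213, Ifi209 and Ifi208 had LFCs of -3.88, -2.46 and -2.31, each from fewer than 100 counts in either strain. Between Mndal and Ifi203 lay Ifi211 with 14 counts in each strain.

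**Figure D2:**
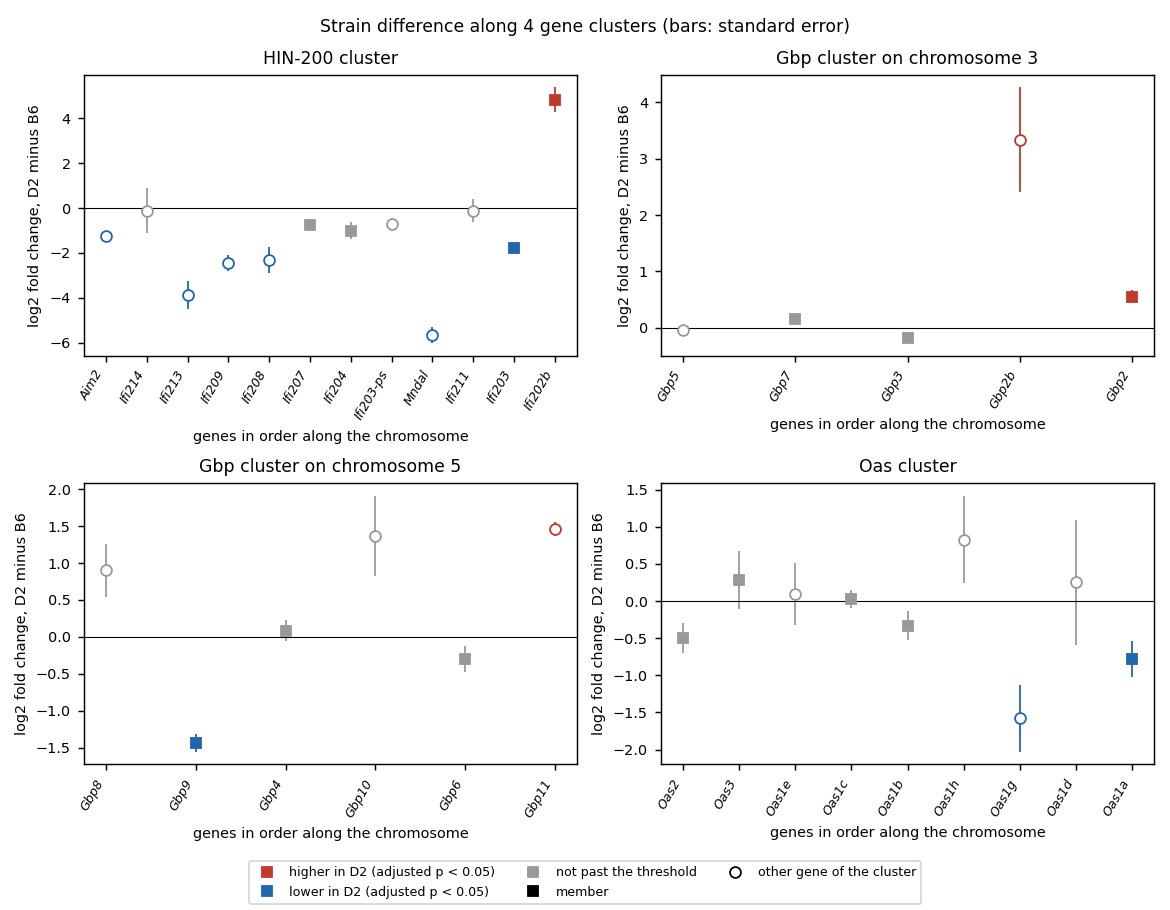
Log2 fold-change, D2 minus B6, with its standard error (vertical axis) for genes in chromosome order (horizontal axis) in the HIN-200 cluster, both Gbp clusters and the Oas cluster, with members as filled squares and other genes as open circles. Genes of 1 cluster differ in direction, as between Ifi203 at -1.78 and Ifi202b at 4.83, and between Gbp9 at -1.43 and Gbp11 at 1.46.

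None of the 4 IFIT genes, whose proteins bind viral RNA, passed the test, and their LFCs ran from -0.20 for Ifit1 to 0.26 for Ifit3b. Ifit2, with the most reads, read 5.81, 6.16, 7.99, 5.72 and 8.15 CPM in the B6 mice and 6.42, 8.103, 6.27, 7.11 and 6.24 CPM in the D2 mice. B6 replicates 3 and 5 gave the highest B6 values of Ifit2, and the strains overlapped (LFC 0.01, SE 0.12, edgeR padj = 0.959). The same libraries gave the lowest B6 values of Ifit3 (3.18 and 3.12 CPM) and of Ifit3b (1.86 and 1.905 CPM). Ifit3 and Ifit3b shared 97.2% and 99.2% of their transcripts, so the split of reads between them is uncertain. The 6 rows of the Ifit cluster on chromosome 19 held no called gene, where 18.3% of all genes were called.

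Of the 6 genes of the OAS family, named for enzymes that make the 2-5A signal that activates RNase L, 1 was lower in D2. Oas1a read 0.482, 0.498, 0.467, 0.614 and 0.467 CPM in the B6 mice and 0.255, 0.353, 0.464, 0.235 and 0.161 CPM in the D2 mice. B6 was 1.72-fold higher and the lowest B6 mouse lay just above the highest D2 mouse (LFC -0.78, SE 0.24, edgeR padj = 0.0412). The call passed in 2 of 10 leave-one-out fits (edgeR padj 0.007397 to 0.0972), without D2 replicate 2 and without D2 replicate 3, and its edgeR padj was 0.05602 without B6 replicates 3 and 5. Oas1a and Oas1g are near copies (98.95% of the Oas1a transcript), so the split of reads between them is uncertain. Oas1g, no member, was lower in D2 (LFC -1.58, SE 0.45, edgeR padj = 0.0265, 37 counts in B6 and 13 in D2). Oasl2, a related protein and the member with the most reads here, read 2.98, 3.08, 2.97, 2.82 and 2.91 CPM in the B6 mice and 2.55, 3.78, 3.28, 2.55 and 2.22 CPM in the D2 mice. It overlapped between strains (LFC -0.04, SE 0.13, edgeR padj = 0.887), and the LFCs of Oas1b, Oas1c, Oas2 and Oas3 ranged from -0.49 to 0.29 without passing.

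Of the 11 other antiviral effectors, 1 was higher and 2 were lower in D2. Isg20, an RNA exonuclease, read 0.411, 0.575, 0.828, 0.643 and 0.791 CPM in the B6 mice and 0.314, 0.362, 0.324, 0.209 and 0.293 CPM in the D2 mice. B6 was 2.15-fold higher, and the lowest B6 mouse stayed above the highest D2 mouse (LFC -1.11, SE 0.21, edgeR padj = 0.00253). Isg20 was highest in B6 replicates 3 and 5, and without these libraries its LFC was -0.85 (edgeR padj = 0.0173). Its upstream neighbour Aen, also an exonuclease gene, was lower as well (LFC -0.32, edgeR padj = 0.00114), while Gm44815 on the other side did not pass (edgeR padj = 0.851). Bst2, or tetherin, which holds budding virus on the cell surface, read 1.63, 1.44, 1.39, 1.19 and 1.495 CPM in the B6 mice and 0.9599, 1.19, 1.18, 0.635 and 0.859 CPM in the D2 mice. The lowest B6 mouse fell within the D2 range, at 1.48-fold higher in B6 on average (LFC -0.57, SE 0.17, edgeR padj = 0.03095). Bst2 passed in 5 of 10 leave-one-out fits (edgeR padj 0.0219 to 0.07497), failing without B6 replicates 1, 2 or 5 and without D2 replicates 1 or 5, and had edgeR padj = 0.0705 without B6 replicates 3 and 5.

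Xaf1, a binding partner of the apoptosis inhibitor XIAP, was the effector that rose, with 3.62, 4.098, 4.88, 3.45 and 4.78 CPM in the B6 mice and 5.56, 6.901, 6.11, 6.22 and 5.08 CPM in the D2 mice. D2 was 1.43-fold higher and no values overlapped (LFC 0.52, SE 0.11, edgeR padj = 0.00579). Without B6 replicates 3 and 5, the highest B6 mice, the LFC was 0.68 (edgeR padj = 5.7e-04). Ifi27, the effector with the most reads, read 12.6, 12.04, 15.1, 13.4 and 16.9 CPM in the B6 mice and 13.7, 16.6, 13.3, 14.4 and 13.6 CPM in the D2 mice. Its strains overlapped (LFC 0.03, SE 0.09, edgeR padj = 0.876). Mx2, a dynamin-like GTPase, lay next to the threshold on the higher side (LFC 0.44, SE 0.15, edgeR padj = 0.0548, DESeq2 padj = 0.0171), as did Rsad2, or viperin (LFC 0.33, SE 0.11, edgeR padj = 0.0635, DESeq2 padj = 0.0336). Ifitm2 and Ifitm3, membrane proteins that block viral entry, had LFCs of -0.24 and -0.21 (edgeR padj = 0.119 and 0.2401), and Ifi44, Ifi35 and Mx1 ran from -0.35 to 0.12 without passing.

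Guanylate-binding proteins (GBPs) are GTPases that attack the membranes of intracellular pathogens, and of the 6 members 1 was higher and 1 lower in D2. Gbp2 read 2.72, 2.24, 1.87, 2.24 and 1.81 CPM in the B6 mice and 2.85, 3.699, 3.04, 3.33 and 3.01 CPM in the D2 mice. D2 was 1.46-fold higher without overlap (LFC 0.55, SE 0.12, edgeR padj = 0.00549). Without B6 replicates 3 and 5, the lowest B6 mice, the LFC was 0.41 (edgeR padj = 0.0251). Gbp9 read 4.54, 4.903, 4.67, 4.702 and 4.4 CPM in the B6 mice and 1.84, 1.89, 1.96, 1.73 and 1.16 CPM in the D2 mice. B6 was 2.7-fold higher and every D2 mouse lay below every B6 mouse (LFC -1.43, SE 0.12, edgeR padj = 2.7e-06). Gbp7, the GBP with the most reads, read 4.396, 4.62, 5.13, 4.87 and 4.89 CPM in the B6 mice and 5.56, 5.16, 6.14, 5.28 and 4.36 CPM in the D2 mice, and its strains overlapped (LFC 0.15, SE 0.09, edgeR padj = 0.2904).

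The Gbp cluster on chromosome 3 held 5 rows and that on chromosome 5 held 6 rows, with 3 members in each. Among their other genes 2 were called and both were higher in D2, where 8.50% of all genes were higher. On chromosome 3, Gbp2b, the neighbour of Gbp2, had 4 counts in B6 and 50 in D2 (LFC 3.34, SE 0.93, edgeR padj = 0.0246). On chromosome 5, Gbp11 was 1.92 ± 0.229 CPM in B6 and 5.29 ± 0.531 CPM in D2 (SD, n = 5 each; LFC 1.46, SE 0.10, edgeR padj = 3.5e-07). The genes beside Gbp9 were not called, with LFCs of 0.90 for Gbp8 (edgeR padj = 0.109) and 0.09 for Gbp4 (edgeR padj = 0.751), and both overlap Gbp9 in the annotation, so reads may be shared. Gbp6 (LFC -0.30, padj = 0.296 by edgeR) shared 94.1% of its transcript with Gm43302, so its reads are uncertain.

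Immunity-related GTPases (IRGs) act on the vacuoles of intracellular parasites. The 5 IRGs among the members had LFCs below 0, as did 49.3% of all rows, and 2 passed. Irgm2 read 3.83, 4.04, 3.31, 3.27 and 3.59 CPM in the B6 mice and 1.86, 1.79, 1.83, 1.65 and 1.44 CPM in the D2 mice. B6 was 2.11-fold higher (LFC -1.08, SE 0.10, edgeR padj = 4.4e-06) and no mouse of one strain reached the other. Igtp, its neighbour on chromosome 11 with an overlapping annotation, read 2.698, 2.796, 2.62, 2.46 and 2.94 CPM in the B6 mice and 1.61, 1.88, 1.52, 1.47 and 1.77 CPM in the D2 mice. B6 was 1.64-fold higher, again without overlap between the strains (LFC -0.71, SE 0.09, edgeR padj = 1.2e-04). The annotations of Igtp and Irgm2 overlap on the plus strand, so reads may be shared between these genes. Beyond Irgm2, the pseudogene Gm5038 had a mean of 1.1 counts per library and none in B6. Irgm1, the IRG with the most reads, read 7.02, 6.62, 7.11, 5.83 and 6.76 CPM in the B6 mice and 5.86, 7.06, 6.71, 5.61 and 5.67 CPM in the D2 mice. Irgm1 overlapped between strains (LFC -0.11, SE 0.08, edgeR padj = 0.438), and Iigp1 and Ifi47 had LFCs of -0.21 and -0.50 (edgeR padj = 0.461 and 0.1104). The 11 rows from Irgm1 to Ifi47 on chromosome 11 held no lower gene and 1 higher gene, where 9.83% of all genes were lower and 8.50% higher. The higher gene was Gm5431, no member, with 66 counts in B6 and 151 in D2 (LFC 1.06, SE 0.27, edgeR padj = 0.0137).

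The 5 antigen processing genes, which make peptides for MHC class I, held no called member. Tapbp, or tapasin, which loads peptides and had the most reads, read 27.5, 26.1, 23.5, 26.6 and 24.6 CPM in the B6 mice and 29.6, 28.3, 27.1, 28.5 and 27.9 CPM in the D2 mice. The difference was small and the strains overlapped (LFC 0.14, SE 0.05, edgeR padj = 0.0571), with DESeq2 padj = 0.0268. Psmb8 and Psmb9, subunits of the immunoproteasome, and the peptide transporter genes Tap1 and Tap2 had LFCs from -0.13 to -0.05. These 4 genes lie together on chromosome 17, and Psmb9 and Tap1 overlap on opposite strands, so reads between them cannot be told apart without strand.

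In the ISG15 and ADP-ribose group, 1 of 6 members was higher and 2 were lower. Trim25, a ubiquitin ligase that activates the sensor RIG-I and had the most reads here, read 10.02, 11.1, 10.3, 10.1 and 10.2 CPM in the B6 mice and 12.3, 14.3, 14.7, 13.5 and 12.5 CPM in the D2 mice. D2 was 1.303-fold higher and no values overlapped (LFC 0.38, SE 0.06, edgeR padj = 5.3e-04). Usp18, the protease that removes ISG15 from proteins and restrains type I receptor signaling, read 0.599, 0.843, 0.849, 0.703 and 0.8096 CPM in the B6 mice and 0.4502, 0.5698, 0.595, 0.566 and 0.349 CPM in the D2 mice. B6 was 1.499-fold higher with no overlap (LFC -0.58, SE 0.17, edgeR padj = 0.0303), though Usp18 passed in 5 of 10 leave-one-out fits (edgeR padj 0.0189 to 0.0692), not without B6 replicates 2, 3 or 5 nor D2 replicates 1 or 5. Its edgeR padj was 0.1201 without B6 replicates 3 and 5. Parp14, an ADP-ribosyltransferase, was the smallest decrease called (LFC -0.28, SE 0.08, edgeR padj = 0.0333) and passed in 4 of 10 leave-one-out fits (edgeR padj 0.0181 to 0.0832), failing without B6 replicates 1, 3 or 5 and without D2 replicates 3, 4 or 5, with edgeR padj = 0.143 without B6 replicates 3 and 5. Isg15, the ubiquitin-like modifier, did not pass (LFC -0.54, SE 0.19, edgeR padj = 0.0678), and DESeq2 gave padj = 0.0336. Without B6 replicates 3 and 5 Isg15 passed as lower (LFC -0.67, edgeR padj = 0.0391). Dtx3l and Parp9, a ligase pair whose transcripts overlap on opposite strands, had LFCs of -0.19 and -0.02.

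**Figure D3:**
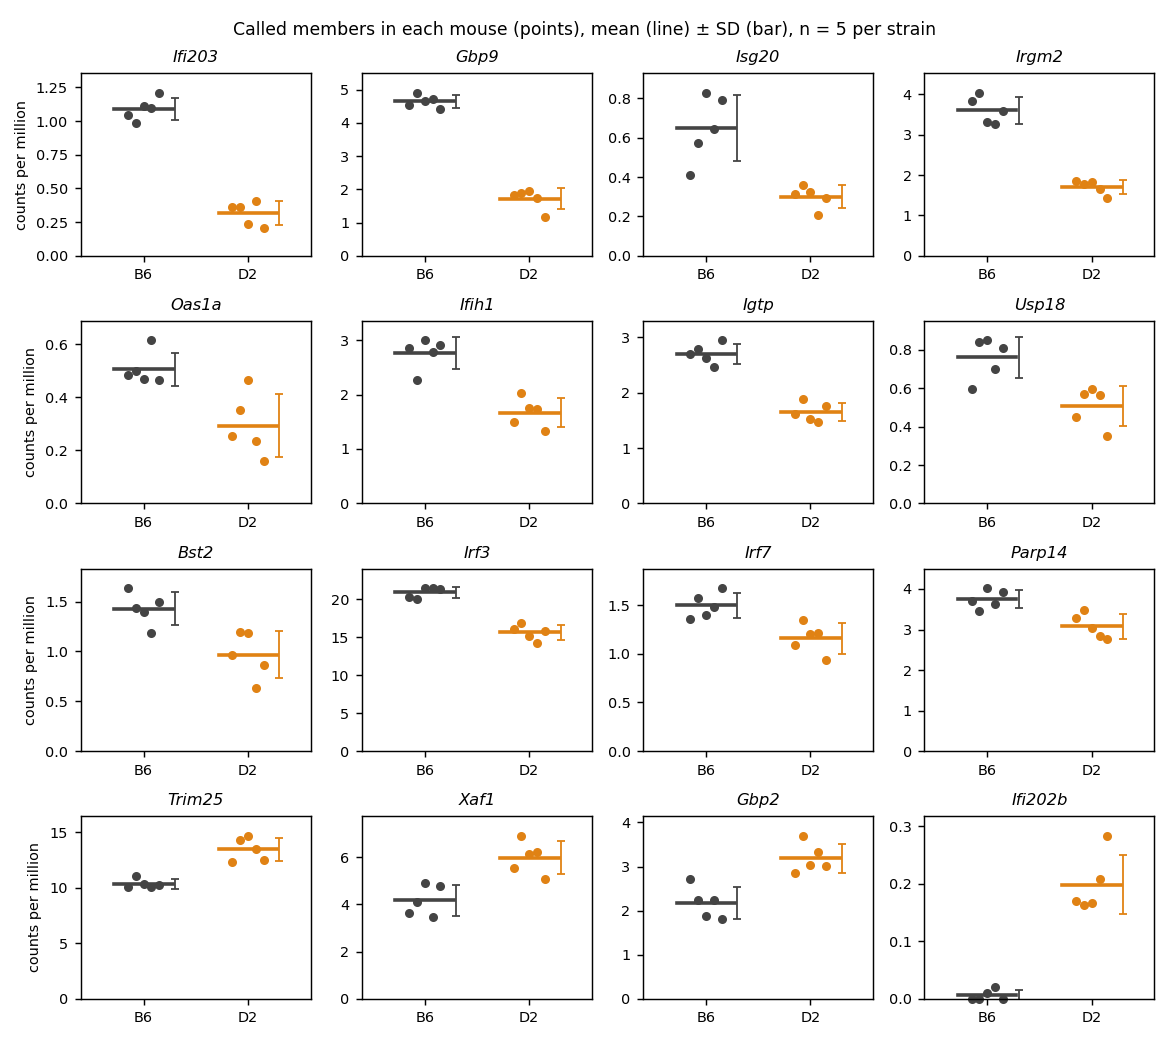
CPM in each mouse for the 16 called members (vertical axis, from 0), ordered by log2 fold-change, with the mean as a line and the SD as a bar for 5 B6 (grey) and 5 D2 (orange) mice. The strains do not overlap for any gene but Bst2 and Parp14.

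Per kilobase of exon, the members spanned from 6 CPM per kb for Irf3 to 0.00338 for Ifi202b in B6. Irf3 ranked first in B6 and the third in D2 (4.49), where Tapbp (6.41) and Stat2 (4.78) stood above it. Ifi202b moved from rank 56 in B6 to rank 47 in D2, and Gbp9 from rank 30 to rank 40. Ifitm3 and Ifi27 kept ranks 4 and 5 in both strains.

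**Figure D4:**
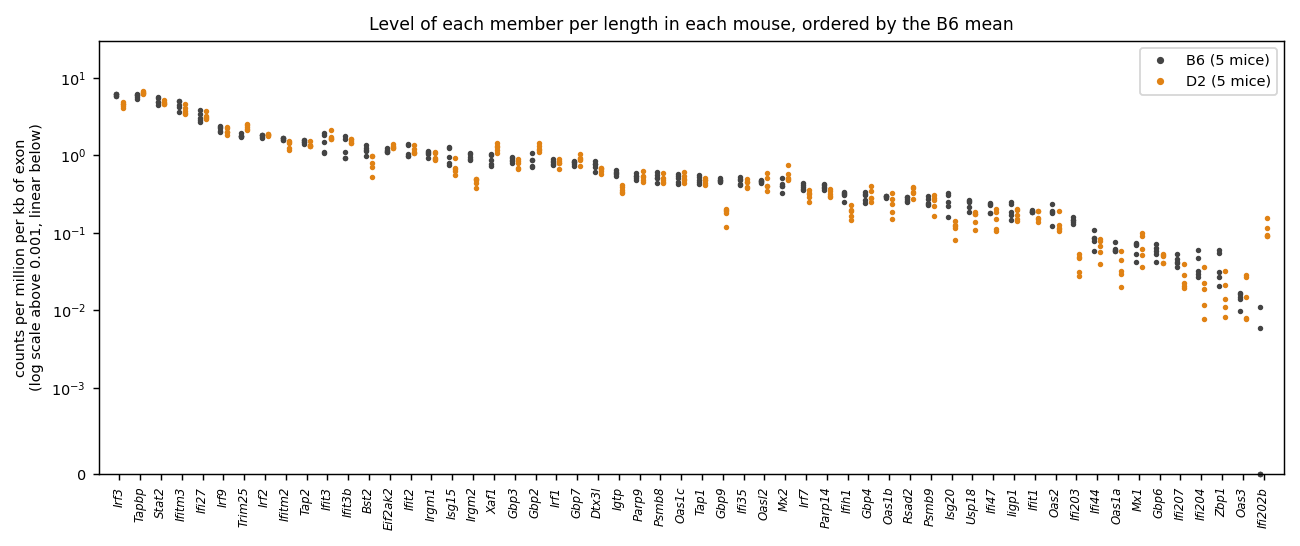
Level of each of the 56 members per exon length in each mouse (CPM per kb, log scale above 0.001), with B6 in grey and D2 in orange, ordered by the B6 mean. Irf3 and Tapbp are at the top in B6, Gbp9 and Ifi203 lie lower in D2, and Ifi202b has B6 mice at 0.

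In the rest of the pathway, Ifnlr1 was the 1 called gene among receptors, kinases, feedback genes, sensors and adaptors with an absolute LFC of 0.5 or more. Among 16 receptor, kinase and feedback genes, 2 were higher and 3 lower (31.25% called, where 18.3% of all genes were called). Ifnar1, a chain of the type I receptor, was 49.97 ± 0.874 CPM in B6 and 58.6 ± 1.76 CPM in D2 (SD, n = 5 each; LFC 0.23, SE 0.03, edgeR padj = 1.5e-04). Ifnlr1 of the lambda receptor was higher (LFC 0.71, SE 0.19, edgeR padj = 0.0227) and Ifngr1 of the gamma receptor lower (LFC -0.16, SE 0.04, edgeR padj = 0.02202), as were the phosphatase genes Ptpn11 (-0.16) and Ptpn2 (-0.18) on the LFC scale. Ifnar2 (LFC -0.02, padj = 0.807 by edgeR) and Ifngr2 (LFC 0.07, padj = 0.645 by edgeR) did not pass. Of 18 sensors and adaptors upstream of interferon, 22.2% were called, near the 18.3% of all genes. The 2 higher were Tbk1 at LFC 0.43 and Traf3 at 0.30, and the 2 lower were Myd88 at -0.41 and Adar at -0.09. The 8 interferon genes looked for had no row.

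Of 56 other genes known to be induced by interferon, 7 were higher and 13 lower (35.7% called, against the 18.3% background). The 5 largest decreases after Mndal were Ifi213, Ifi209, Slfn2, Ifi208 and Oas1g, and Slfn2, of the Schlafen family, had an LFC of -2.37 (edgeR padj = 2.4e-06). Slfn8 of the same family went up, at 1.04 ± 0.192 CPM in B6 and 4.46 ± 0.665 CPM in D2 (SD, n = 5 each; LFC 2.101, SE 0.14, edgeR padj = 2.3e-07). Tor3a (LFC 0.80, padj = 4.9e-07 by edgeR) and Nlrc5, a regulator of MHC class I genes (LFC 0.64, padj = 0.00181 by edgeR), were higher, and Trim34a was lower (LFC -1.23, padj = 1.9e-04 by edgeR). This list too was written with earlier results in view, so its counts are a description.

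Markers of other cells were read beside the members, in lists of 5 to 10 genes, where 18.3% of all genes were called. The share called was 22.2% for endothelial and mural, 14.3% for choroid plexus and ependyma, 10% for leukocyte and 0% for cortical neuron markers. It was 40% for microglia, 50% for astrocyte and for oligodendrocyte, 60% for red blood cell and 62.5% for striatal neuron markers. Microglia markers were called in 4 of 10, with C1qb (-1.22), C1qa (-0.44) and Trem2 (-0.29) lower and P2ry12 (0.26) higher on the LFC scale, and their sum was 378 to 435 CPM in B6 and 321 to 386 CPM in D2. Leukocyte markers were low and called in 1 of 10, summing to 4.21 to 5.53 CPM in B6 and 3.995 to 4.95 CPM in D2. Their median LFC was -1.19, with 9 of 10 below 0: Ptprc, which gave most of the sum, had an LFC of -0.03, and the other markers, with 7 to 144 counts over the B6 mice, ran from -1.95 for Cd3e to 0.22 for Cd3g, with S100a8 called at -1.53. Endothelial and mural markers gave 1 higher and 1 lower of 9, astrocyte markers 1 and 2 of 6, oligodendrocyte markers 0 and 3 of 6, striatal neuron markers 0 and 5 of 8, red blood cell markers 0 and 3 of 5, choroid plexus and ependyma markers 0 and 1 of 7, and cortical neuron markers none of 6. Without B6 replicates 3 and 5, 4 of the 6 cortical markers and none of the oligodendrocyte markers were called. Endothelial and mural markers summed to 305 to 358 CPM in B6 and 273 to 347 CPM in D2. Oligodendrocyte markers summed to 4104 to 5987 CPM in B6 and 3103 to 4544 CPM in D2, which overlapped, and red blood cell markers to 71.8 to 99.5 and 42.2 to 77.9 CPM. Fewer cells of a type and less RNA per cell cannot be told apart in these bulk samples, and the part of cell makeup in the member differences was not tested.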

How the data were processed

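NAc tissue of 5 C57BL/6J (B6) and 5 DBA/2J (D2) male mice was sequenced as 1 stranded poly-A library per mouse, with paired reads of 150 bases. The authors trimmed reads with fastp, aligned both strains to the C57BL/6J genome (GRCm39, Ensembl annotation) with STAR 2.7.10b, sorted with SAMtools 1.6 and deposited raw gene counts from featureCounts. The strand setting and the treatment of reads with several alignments are not given in the sources used here.

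The counts were normalized by TMM and tested with the quasi-likelihood F test of edgeR 4.0.16 in R 4.3.3, D2 against B6, over all 29883 rows with Benjamini-Hochberg adjustment (padj) and a threshold of 0.05. The test was two-sided. The SE was taken as the absolute LFC over the root of the F statistic. Other settings tried were a DESeq2 1.42.0 fit, edgeR with DESeq2 size factors, with upper-quartile scaling or with no scaling beyond total counts, filterByExpr, a replicate block, each mouse left out in turn and a threshold of 0.01. A fit without both B6 libraries rich in cortical markers was added after the data were seen. The scripts were tested on simulated counts. Symbols, positions and exon lengths came from the GENCODE annotation of GRCm39, and shared transcript stretches (at least 97% identity over 150 bases) were found with BLAST 2.17.0.

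The members and lists were chosen with earlier results of these data known. Values in each mouse are given for called members (those past the threshold) among the 24 with the largest absolute LFC and at least 10 mean counts in 1 strain, and for the member with the most reads in each role group. Genes that are no members are named where they were listed pathway genes called with an absolute LFC of at least 0.5, interferon receptor genes, or the nearest genes beside a called member with an absolute LFC of at least 1, and some genes that this rule covers are not reported here. Genes named outside this rule were chosen after their values were seen. Each library held 96977262 to 116776714 counts, and intervals given for counts cover counting error only.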

Additional observations from a re-analysis of the deposited data

Results flagged for a closer look

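In 6 of the 112 groups of 5 mice looked at, 1 mouse stood apart from the other 4 by Dixon's test at the 95% level, and chance flags about 1 in 20 such groups. Ifit3 was 6.06 CPM in D2 replicate 2, above 4.65 to 4.92 CPM in the other D2 mice. Oas1a was 0.614 CPM in B6 replicate 4, above 0.467 to 0.498 CPM in the other B6 mice. Oas2 was 0.849 CPM in D2 replicate 1, above 0.472 to 0.561 CPM in the other D2 mice. Gbp9 was 1.16 CPM in D2 replicate 5, below 1.73 to 1.96 CPM in the other D2 mice. Tap2 was 7.19 CPM in D2 replicate 1, above 6.29 to 6.42 CPM in the other D2 mice. Trim25 was 11.1 CPM in B6 replicate 2, above 10.02 to 10.3 CPM in the other B6 mice.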

How the results depend on the processing

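The count of members higher in D2 was 4 and the count lower was 12. Under total counts 8 members were higher and 10 lower, and under DESeq2 8 were higher and 13 lower. At padj under 0.01, 7 members were lower and 4 higher. With 1 mouse left out, the higher count ranged from 4 to 6 and the lower count from 7 to 13, with 7 reached both without B6 replicate 5 and without D2 replicate 5. With DESeq2 size factors in edgeR the counts were 6 higher and 12 lower, with upper-quartile scaling 4 and 12, with filterByExpr 6 and 13, and without B6 replicates 3 and 5 4 and 9. No called member changed direction under these settings. Without 1 mouse, the LFC crossed 0 in Irf1, Ifit2, Oas1c, Oasl2, Mx1, Ifi27, Gbp4, Psmb9 and Parp9, members not called, within -0.16 to 0.28. Total counts moved the share of lower genes among all called genes from 53.6% to 45.04% (the median LFC of all rows rose by 0.03), and Irf7 and Parp14 then missed the threshold. Of the 16 called members, 11 passed in all 10 fits without 1 mouse, and 9 members not called passed in at least 1 such fit: Ifi204 and Zbp1 without D2 replicate 3, Ifi207 without D2 replicate 1, Eif2ak2 and Tapbp without B6 replicate 1, Rsad2 without D2 replicate 5, Oas2 without B6 replicate 3 or D2 replicate 1, Mx2 without B6 replicate 2 or D2 replicate 1, and Isg15 without B6 replicate 3, B6 replicate 4 or D2 replicate 2. Among the other lists, called receptor, kinase and feedback genes fell from 5 to 3 under total counts and under the replicate block and to 2 at padj under 0.01. Without B6 replicates 3 and 5, called oligodendrocyte markers went from 3 to 0, cortical markers from 0 to 4 and the 1 leukocyte marker was lost. DESeq2 called 4 endothelial and mural markers in place of 2. Isg15 was lower without B6 replicates 3 and 5 (LFC -0.67). The causes were not tested. Ifi204, Zbp1 and Oas3 rest on means of 11.4 to 12.8 counts per library, and their LFCs have SEs of 0.39 to 0.42.

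The replicate numbers in the labels did not pair the mice: the deviations of same-numbered mice from their strain means correlated at -0.42 to 0.37 across genes, and B6 replicates 1 and 3 alone correlated best with their own number. With the replicate block, 6 members were higher and 11 lower. Irf7, Oas1a and Parp14 missed the threshold under it, and Zbp1, Mx2 and Tapbp passed.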
